A study of Mus musculus with 18 samples.

Results

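The TGF-beta genes described here are the ligand genes Tgfb1, Tgfb2 and Tgfb3, the receptor genes Tgfbr1, Tgfbr2 and Tgfbr3, the signal transducer Smad3, the inhibitors Smad7 and Skil, and the latency protein gene Ltbp1. They were chosen by gene symbol, and all 10 were found among the 15288 gene rows of the expression table. These genes, and the pathway and marker lists used below, were chosen with earlier results of these data known. Their counts beside the shares of all genes are therefore descriptions and do not test for an excess. RNA sequencing gave 18 libraries of mouse cells whose source is labelled pulmonary microvascular endothelium, while the title of the series speaks of vascular smooth muscle. The design crossed 2 siRNA treatments (scrambled, or siCYP1B1 against the estrogen-metabolizing cytochrome CYP1B1) with 3 estrogen arms (vehicle, 1 uM E2 or 1 uM 16aOHE), with 3 libraries in each of the 6 groups. All groups shared lipid transfection with 5 ul of a 10 uM siRNA stock in 60 mm dishes, growth in an endothelial medium and 5% serum. The estrogens followed the transfection by 24 hours and stayed on for 24 hours. The scrambled vehicle libraries are the controls, and they carry a transfection too. Nothing in the labels tells separate cultures from repeat libraries of 1 culture. Every p-value below therefore measures the spread between these libraries, which may be technical. E2 is the common short name of estradiol, and 16aOHE that of a hydroxylated estrone formed from it.

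TGF-beta ligands are secreted in a latent complex with their own propeptide and a latent TGF-beta binding protein, and they signal after release from it. The active ligand binds the type II receptor, which activates the type I receptor, and the type III receptor, betaglycan, presents ligand to them. The type I receptor then phosphorylates SMAD2 and SMAD3, which enter the nucleus with SMAD4. SMAD7 and the SKI family protein SnoN, the product of Skil, restrain the pathway and are among its own transcriptional targets. In vessels of the lung the pathway is known for its roles in matrix production, smooth muscle differentiation and remodelling.

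Cell type markers were measured before the TGF-beta genes. Of 15 endothelial markers, 9 were in the table. The defining genes Pecam1 and Vwf averaged 0.0482 ± 0.0593 and 0.0306 ± 0.0589 CPM (counts scaled to the same total in each library; SD, n = 18), Cdh5, Tie1, Cldn5, Emcn, Sox17 and Erg were not analysed here, and Cd34 and Flt1 made up most of the list's summed 134.2 to 298.0 CPM. Among the other endothelial markers, Esam averaged 18.9 ± 5.93 CPM, Kdr 4.37 ± 0.890 CPM and Egfl7 1.14 ± 0.262 CPM, with Tek and Ramp2 under 1 CPM. Each of the 8 mesothelial markers had a row, and they summed to 3019 to 4989 CPM. Most of this came from Msln, Upk1b and Upk3b, whereas Krt8 averaged 0.522 ± 0.291 CPM and Krt18 3.87 ± 2.63 CPM. Fibroblast and pericyte markers summed to 3208 to 6369 CPM and smooth muscle markers to 1027 to 1121 CPM, the latter mostly Cald1, with Myh11 at 0.0765 ± 0.0877 CPM. The epithelial and leukocyte lists reached at most 6.14 and 37.8 CPM. The libraries are called by their labels below, although the defining endothelial genes Pecam1 and Vwf were near 0. Depth was estimated from the steps between low values, which put 1 CPM at 14.1 to 38.5 reads, depending on the library. The siRNA target was checked in every library. Cyp1b1 was at 89.1, 91.4 and 96.1 CPM with scrambled siRNA and at 80.8, 82.2 and 81.3 CPM with siCYP1B1 in vehicle. With E2 the scrambled libraries gave 116.8, 118.8 and 117.1 CPM and the siCYP1B1 libraries 100.4, 103.6 and 103.9 CPM. With 16aOHE they gave 105.9, 107.7 and 105.3 CPM against 88.7, 90.2 and 91.5 CPM. Cyp1b1 thus fell by 11.7% to 15.2%, with no overlap in any arm, a small reduction for a targeted gene.

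An earlier look at these data found the bases AAAGTCA more often in the 3′ UTRs of genes that were lower with siCYP1B1, and the sites in the TGF-beta genes are shown for that reason. The search used the transcript strand of the longest 3′ UTR of each gene (GENCODE M21, GRCm38), and the capitals mark the 7 bases whose coordinates are given. The Tgfbr1 site is at chr4:47412222-47412228 (plus strand), the Tgfbr2 site at chr9:116088890-116088896 (minus) and the Ltbp1 site at chr17:75391234-75391240 (plus).
Tgfbr1: tattaaatgtcAAAGTCAgtccgttgggt
Tgfbr2: aacccacgacaAAAGTCAtgttcagtggg
Ltbp1: ttgtgatgtgtAAAGTCAaccgagaaaaa
Smad7 also held 1 such site, which makes 4 of the 10 genes. Of these 4, Tgfbr2 and Smad7 were called lower in the average over the estrogen arms, and Tgfbr1 and Ltbp1 were not called. The other 6 genes lacked the bases in this UTR, and they included Tgfb3, Skil, Tgfb2 and Smad3, which were called lower. For comparison, 559 of the 1796 tested genes with the bases were called lower, against 2112 of all 11467 with a UTR. Over all tested genes with a UTR (11467), 26.5% of those called lower, 8.85% of those called higher and 15.7% in all held the bases. The median UTR length was 1562 bases in the first set, 960 bases in the second and 1210 bases in all. The 4 TGF-beta genes with the bases had UTRs of 4154 (Tgfbr1), 6085 (Tgfbr2), 1214 (Ltbp1) and 1570 bases (Smad7). Those of the other 6 ran from 135 (Tgfb1) to 3964 bases (Skil). The part of UTR length in these shares was not tested. Since the bases were picked on these libraries, no test is given.

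The 10 genes lie on mm10 as follows. Tgfb1 is at chromosome 7, 25687002 to 25705077 (plus strand), Tgfb2 at chromosome 1, 186622792 to 186705989 (minus), and Tgfb3 at chromosome 12, 86056743 to 86079041 (minus). Tgfbr1 is at chromosome 4, 47353222 to 47414924 (plus), Tgfbr2 at chromosome 9, 116087695 to 116175363 (minus), and Tgfbr3 at chromosome 5, 107106567 to 107289629 (minus). Smad3 shares chromosome 9 (63646767 to 63757994, minus), and Smad7 is at chromosome 18, 75367365 to 75395934 (plus). Skil is at chromosome 3, 31095058 to 31122923 (plus), and Ltbp1 at chromosome 17, 75005529 to 75392512 (plus), the chromosome that also holds Cyp1b1. The GENCODE annotation places Ttll5, a tubulin glutamylase gene that averaged 28.9 CPM, on the opposite strand across part of Tgfb3. The sources used here do not say whether counting used strand, so that reads from the overlap cannot be assigned with certainty.

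Levels were compared between genes per length, as CPM per kilobase of exon. Over the 18 libraries the order was Tgfbr2 (47.4 CPM per kb), Tgfb3 (43.3), Tgfb1 (36.7), Smad3 (32.5), Ltbp1 (18.4), Tgfbr3 (14.6), Tgfb2 (13.6), Tgfbr1 (10.7), Skil (9.60) and Smad7 (4.81). The ranges of neighbours over the libraries overlapped, except between Smad3 and Ltbp1 and between Skil and Smad7. Tgfbr2 was above Tgfb3 in 12 of 18 libraries and Tgfb3 above Tgfb1 in 14 of 18, so that the first places changed between libraries. Tgfb1 was above Tgfb3 in the siCYP1B1 E2 libraries and in library 1 of siCYP1B1 16aOHE, but not in libraries 2 and 3 of the latter. Across libraries the highest CPM of Tgfb3 was 2.01 times its lowest, and that of Tgfbr3 1.91 times, whereas Tgfbr2 moved by 1.18 times.

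**Figure D1:**
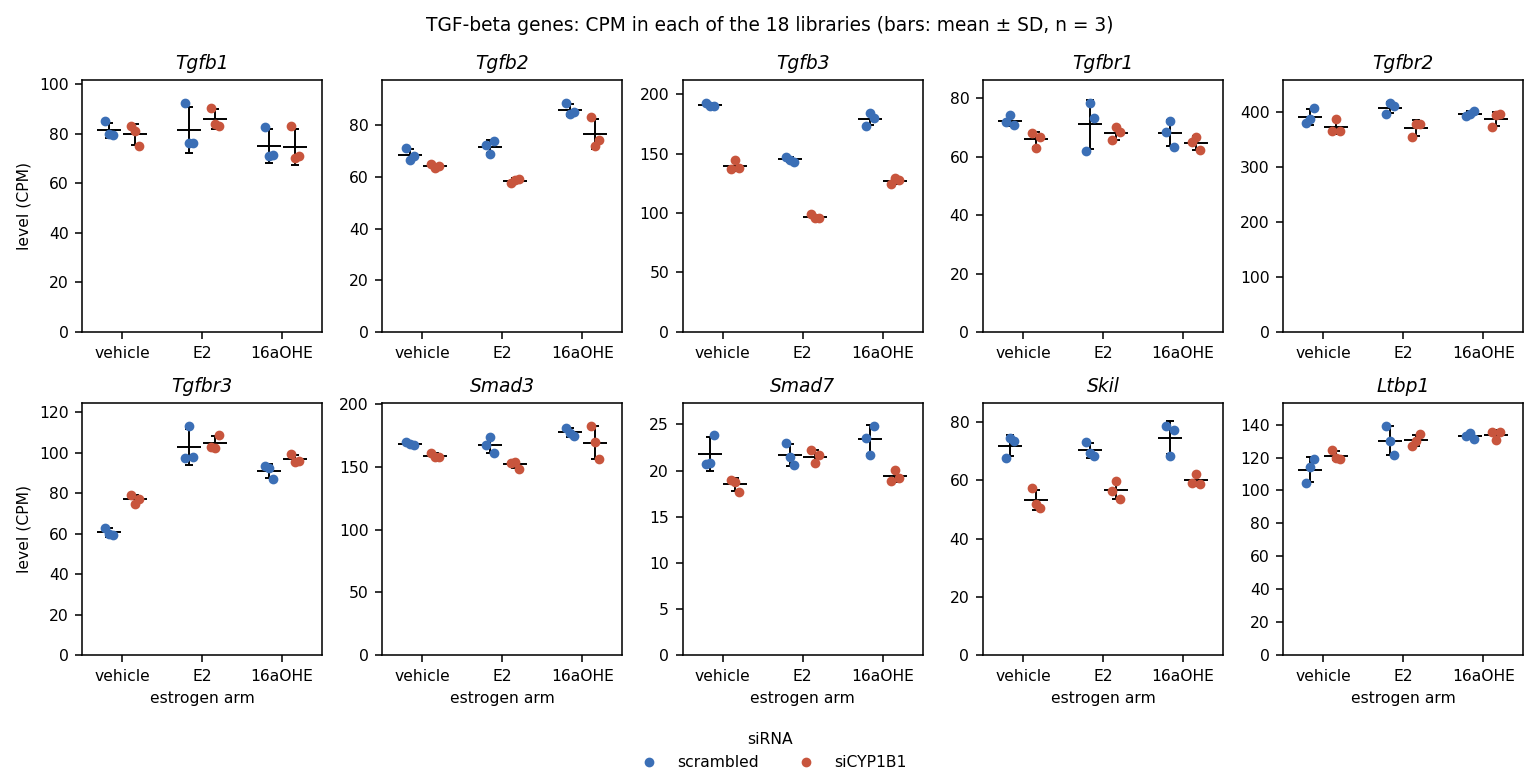
Level in CPM (y axis, from 0, own scale for each gene) of the 10 genes in each library, by estrogen arm (x axis) and siRNA (colour). Points are libraries and black bars mean ± SD (n = 3). Tgfb3 is lower with siCYP1B1 in every arm, from 190.9 to 139.9 CPM in vehicle, and Tgfbr3 is lowest in the scrambled vehicle libraries (60.6 CPM).

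The effect of siCYP1B1 was compared first, in each estrogen arm and as the average of the 3 arms. Tgfb3 and Skil fell in all 3 arms, Tgfb2, Tgfbr2, Smad3 and Smad7 fell in the average, and Tgfbr3 rose. Differences are on the log2(CPM + 1) scale, a gene is called at an adjusted p under 0.05 (limma, adjusted over 11835 genes), and the text uses rose, fell, higher and lower as calls for such genes. In the average, 1 of the 10 genes was higher and 6 were lower, against 26.5% higher and 18.2% lower of all genes tested. The median difference of the 10 genes was -0.09, against 0.03 over all genes. In vehicle 1 gene was higher (background 11.5%) and 3 were lower (9.12%). With E2 0 were higher (11.4%) and 5 lower (9.80%), and with 16aOHE 0 were higher (10.4%) and 4 lower (9.31%). In the arms with E2 and 16aOHE the largest differences above 0 were those of Tgfb1 (0.08, unadjusted p = 0.321 by limma) and Tgfbr3 (0.09, unadjusted p = 0.0871), so that no gene was higher at an unadjusted p under 0.05 either. The share of all genes at that unadjusted threshold was not computed for these arms. The split of calls over all genes depended on scaling: in vehicle 55.7% of all calls were higher with the deposited scaling, 47.0% on quantile-normalized values and 40.8% with median-of-ratios factors, while the 10 genes kept 1 higher and 3 lower in each. With E2 the corresponding splits were 53.7%, 46.6% and 40.6%. In the average over the arms they were 59.3%, 53.7% and 49.4%, and under both other scalings 7 of the 10 genes were lower, with Tgfbr1 as the added one.

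Among the ligands, Tgfb3 had the largest difference. It was at 192.4, 190.1 and 190.3 CPM in scrambled vehicle and at 137.2, 144.9 and 137.5 CPM in siCYP1B1 vehicle. With E2 the scrambled libraries gave 147.5, 144.9 and 143.3 CPM and the siCYP1B1 libraries 98.9, 95.6 and 95.6 CPM. With 16aOHE the values were 173.6, 183.9 and 179.7 CPM against 124.5, 129.4 and 128.1 CPM. The siRNA groups did not overlap in any arm, and the siCYP1B1 libraries with E2 were the lowest of all. Tgfb3 fell by 26.8% in vehicle, 33.4% with E2 and 28.9% with 16aOHE. The log2 differences were -0.45 (adjusted p = 8.48e-09), -0.58 (adjusted p = 1.43e-10) and -0.49 (adjusted p = 2.64e-09). Their average was -0.51 (95% interval -0.55 to -0.47, adjusted p = 2.46e-14). The overlapping gene Ttll5 had the opposite sign in this average (0.13, adjusted p = 0.00723).

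Mesothelial markers moved with Tgfb3. Their sum over all 8 genes was 4906 to 4989 CPM in scrambled vehicle and 3741 to 3902 CPM in siCYP1B1 vehicle. It was 3797 to 4048 CPM in scrambled E2, 3019 to 3125 CPM in siCYP1B1 E2, 4451 to 4745 CPM in scrambled 16aOHE and 3497 to 3642 CPM in siCYP1B1 16aOHE. Of the 7 mesothelial markers tested, 6 were lower in the siRNA average, against 18.2% of all genes. Their median difference was -0.49, against 0.03 over all genes. The fibroblast and pericyte list had 4 of 5 tested genes lower in this average (median -0.20), and the endothelial list 3 of 5 (median -0.32). The summed endothelial list went from 258.3 to 298.0 CPM in scrambled vehicle to 186.8 to 188.4 CPM in siCYP1B1 vehicle, with Pecam1 and Vwf near 0 throughout. The fibroblast and pericyte list went from 6046 to 6369 CPM to 4850 to 5125 CPM, with Lum, Cspg4 and Rgs5 each under 1 CPM on average. The smooth muscle list went from 1097 to 1116 CPM to 1027 to 1063 CPM, and its 4 tested genes were all lower in the siRNA average (median -0.21), with Myh11, Cnn1 and Lmod1 near 0. The part of these markers in the result was not tested. In bulk RNA, fewer cells of a type and less RNA per cell cannot be told apart.

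Tgfb2 was at 71.1, 66.4 and 68.2 CPM in scrambled vehicle and at 65.1, 63.4 and 64.2 CPM in siCYP1B1 vehicle. With E2 it was at 72.2, 68.9 and 73.9 CPM against 57.5, 58.8 and 59.4 CPM, and with 16aOHE at 88.6, 84.3 and 85.2 CPM against 83.1, 72.1 and 74.2 CPM. Each siCYP1B1 library was below the scrambled libraries of its arm. In vehicle the difference was -0.09 (adjusted p = 0.182). It was -0.29 with E2 (adjusted p = 0.000183) and -0.17 with 16aOHE (adjusted p = 0.0148), and -0.18 in the average (adjusted p = 1.55e-05). The call with 16aOHE was lost without scrambled 16aOHE library 1 (adjusted p = 0.0706), siCYP1B1 16aOHE library 2 (0.0892) or library 3 (0.0636), and with only these groups in the fit (0.0681).

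Tgfb1, the ligand gene most studied in fibrosis, ranged from 70.4 to 92.4 CPM over the 18 libraries. Its siRNA groups overlapped in every arm. The library numbered 1 had the highest Tgfb1 level in 6 of 6 groups, and also the most genes at 1 CPM or more in 6 of 6, although the numbers follow accession order and the labels tie no libraries together. The part of this in the Tgfb1 comparisons was not tested. The average difference was 0.01 (95% interval -0.08 to 0.10, adjusted p = 0.835).

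The make-up of the ligand transcripts followed from these values. Per length, Tgfb3 made up 52.7% ± 0.701 of the summed ligands in scrambled vehicle and 36.0% ± 0.332 in siCYP1B1 E2 (SD, n = 3 each). Tgfb1 went from 35.0% ± 0.572 to 49.8% ± 0.950, so that the leading ligand transcript per length differed between these groups, which differ in both siRNA and estrogen. Without division by length, Tgfb3 was above Tgfb1 in siCYP1B1 E2 too (96.7 against 85.9 CPM), so that the lead there rests on the exon lengths used. In the other groups Tgfb3 had the larger mean share. It was 45.6% against 39.8% for Tgfb1 in scrambled E2 and 50.9% against 33.2% in scrambled 16aOHE. With siCYP1B1 it was 45.8% against 40.6% in vehicle and 43.5% against 39.6% with 16aOHE. The sum of the ligands was 107.1 ± 2.17 CPM per kb in the first group and 79.3 ± 2.28 in the second. Tgfb2 made up 12.3% ± 0.205 in scrambled vehicle and had its highest share, 16.9% ± 0.578, in siCYP1B1 16aOHE.

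**Figure D2:**
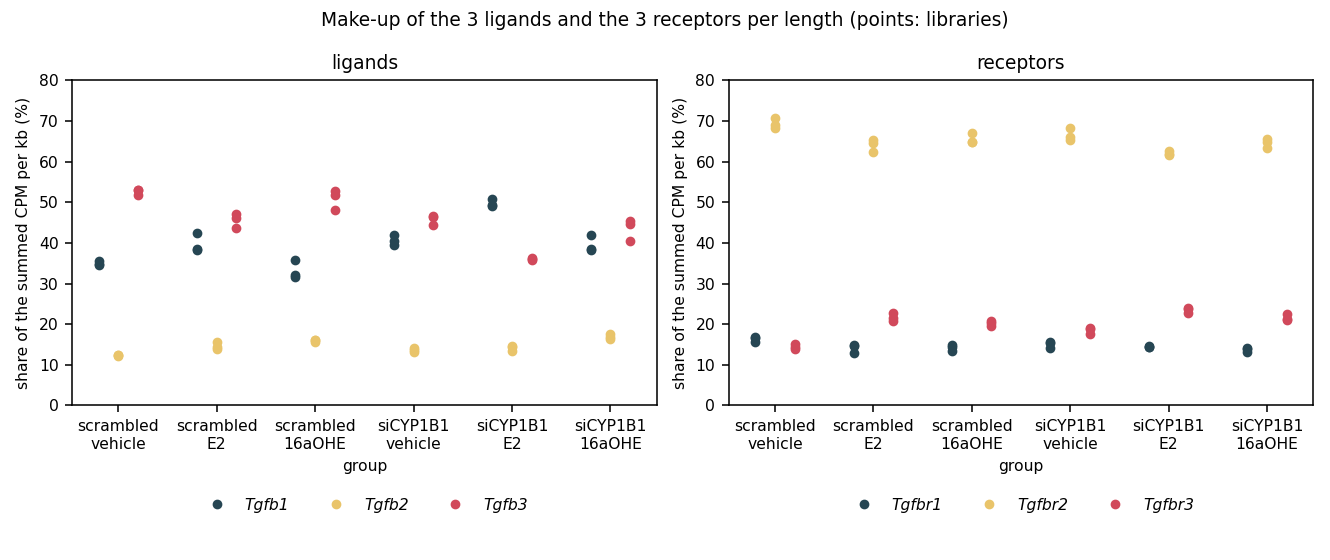
Share of each gene in the summed CPM per kb (y axis, percent) of the ligands (left) and of the receptors (right) in each library, by group (x axis). By mean share, Tgfb1 leads the ligands in siCYP1B1 E2 only (49.8%), and Tgfb3 leads in the other groups (52.7% in scrambled vehicle). The Tgfbr3 share is lowest in scrambled vehicle (14.4%) and highest in siCYP1B1 E2 (23.5%).

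Among the receptors, Tgfbr3 encodes betaglycan, the co-receptor without kinase activity. It was at 62.9, 59.7 and 59.1 CPM in scrambled vehicle and at 79.0, 74.5 and 77.1 CPM in siCYP1B1 vehicle. The groups did not overlap, and Tgfbr3 rose by 26.9% (log2 0.34, SE 0.0503, adjusted p = 5.89e-05). With E2 the scrambled libraries gave 97.3, 113.0 and 97.7 CPM and the siCYP1B1 libraries 102.7, 102.4 and 108.6 CPM, which overlapped (0.03, adjusted p = 0.719). With 16aOHE they gave 93.2, 92.5 and 87.2 CPM against 99.3, 95.5 and 95.8 CPM (0.09, adjusted p = 0.227). The average over the arms was 0.15 (adjusted p = 0.000216).

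Tgfbr2, the ligand-binding kinase and the most abundant of the 10 genes per length, ranged from 354.2 to 416.6 CPM. In the E2 arm it was at 397.2, 416.6 and 411.0 CPM with scrambled siRNA and at 354.2, 379.3 and 379.2 CPM with siCYP1B1, without overlap. This difference was -0.14 (adjusted p = 0.0108), and without siCYP1B1 E2 library 1 it was no longer called (-0.11, adjusted p = 0.0755). In vehicle and 16aOHE the differences were -0.07 (adjusted p = 0.214) and -0.03 (adjusted p = 0.582). Tgfbr2 fell by 0.08 in the average (adjusted p = 0.00464).

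Tgfbr1, the type I receptor kinase, was the receptor with no call in any comparison. It ranged from 61.9 to 78.4 CPM, and both ends of that range came from scrambled E2 libraries. The siRNA average was -0.09 (95% interval -0.16 to -0.01, adjusted p = 0.0653). It was called with quantile-normalized values (-0.11, adjusted p = 0.0267), with median-of-ratios factors (-0.11, adjusted p = 0.0280), and without scrambled E2 library 1 (-0.12, adjusted p = 0.00345) or scrambled 16aOHE library 3 (-0.10, adjusted p = 0.0328).

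Smad3, a transducer phosphorylated by the type I receptor, fell by 0.10 in the average (adjusted p = 0.00261). In the E2 arm it was at 167.6, 173.4 and 161.2 CPM with scrambled siRNA and at 153.0, 153.8 and 148.5 CPM with siCYP1B1, without overlap (-0.14, adjusted p = 0.0221). This call was lost without scrambled E2 library 1 (adjusted p = 0.0518), scrambled E2 library 2 (0.104) or siCYP1B1 E2 library 3 (0.0847). In vehicle and 16aOHE the differences were -0.08 (adjusted p = 0.175) and -0.07 (adjusted p = 0.268), and the latter was called without siCYP1B1 16aOHE library 1 (-0.12, adjusted p = 0.0322).

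Smad7, the inhibitory SMAD that blocks the activated type I receptor, was the least abundant of the genes. It was at 20.7, 20.8 and 23.9 CPM in scrambled vehicle and at 19.0, 18.8 and 17.7 CPM in siCYP1B1 vehicle. With 16aOHE it was at 23.5, 21.7 and 24.8 CPM against 18.9, 20.1 and 19.2 CPM, again without overlap. With E2 the groups overlapped, at 23.0, 21.5 and 20.6 CPM against 22.2, 20.8 and 21.7 CPM. The differences were -0.22 in vehicle (adjusted p = 0.0259), -0.25 with 16aOHE (adjusted p = 0.0123) and -0.01 with E2 (adjusted p = 0.941), and the average was -0.16 (adjusted p = 0.00225). The vehicle call was lost without scrambled vehicle library 3 (-0.16, adjusted p = 0.156), siCYP1B1 vehicle library 2 (adjusted p = 0.0512) or siCYP1B1 vehicle library 3 (adjusted p = 0.102). The 16aOHE call was lost without scrambled 16aOHE library 3 (adjusted p = 0.0648).

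Skil, whose product SnoN binds SMAD complexes and represses their target genes, fell in every arm. It was at 67.7, 74.6 and 73.7 CPM in scrambled vehicle and at 57.3, 51.9 and 50.7 CPM in siCYP1B1 vehicle. With E2 it was at 73.2, 69.5 and 68.3 CPM against 56.4, 59.9 and 53.6 CPM, and with 16aOHE at 78.6, 68.3 and 77.2 CPM against 59.1, 62.3 and 58.9 CPM. No siCYP1B1 library reached a scrambled library of its arm. Skil fell by 26.0% in vehicle, fell by 19.5% with E2 and fell by 19.6% with 16aOHE. The average difference was -0.35 (SE 0.0340, 95% interval -0.42 to -0.28, adjusted p = 5.16e-08). The marker sums given beside Tgfb3 moved in the same direction, and their part in this result was not tested.

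Ltbp1, which tethers the latent ligand to the matrix, had no call with siCYP1B1. It was at 104.4, 114.3 and 119.0 CPM in scrambled vehicle and at 124.5, 119.6 and 119.4 CPM in siCYP1B1 vehicle (0.11, adjusted p = 0.118). The average difference was 0.04 (95% interval -0.02 to 0.10, adjusted p = 0.239).

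**Figure D3:**
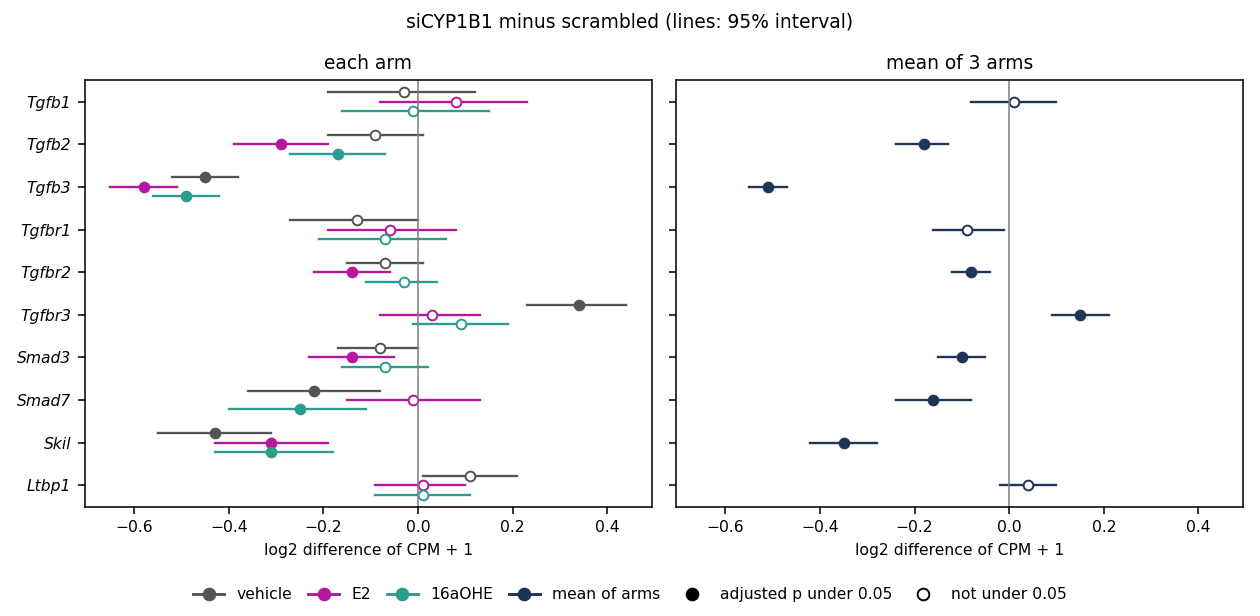
Log2 difference of CPM + 1, siCYP1B1 minus scrambled (x axis), for the 10 genes (y axis) in each estrogen arm (left) and averaged over the arms (right). Lines are 95% intervals and filled points have an adjusted p under 0.05. Tgfb3 and Skil lie below 0 in all arms (averages -0.51 and -0.35), and Tgfbr3 is above 0 in vehicle (0.34).

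E2 against vehicle was compared next, within each siRNA. E2 raised Tgfbr3 and lowered Tgfb3 with either siRNA, and raised Ltbp1 with scrambled siRNA. With scrambled siRNA 2 of the 10 genes were higher (background 18.6%) and 1 was lower (11.4%). With siCYP1B1 2 were higher (16.7%) and 2 lower (10.8%). The median of the 10 genes was 0.00 with scrambled siRNA and 0.07 with siCYP1B1, against 0.03 and 0.04 over all genes. Of all calls with scrambled siRNA, 62.0% were higher as deposited, 51.0% on quantile-normalized values and 45.9% with median-of-ratios factors, and the 10 genes gave 2 higher and 1 lower in each. With siCYP1B1 these splits were 60.6%, 50.8% and 44.7%, and both other scalings left 1 of the 10 genes higher.

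Tgfbr3 had the largest estrogen difference of the 10 genes. It went from 60.6 ± 2.07 CPM in scrambled vehicle to 102.6 ± 8.96 CPM with E2 (SD, n = 3 each), a rise of 69.4% (log2 0.75, 95% interval 0.64 to 0.85, adjusted p = 9.90e-10). With siCYP1B1 it went from 76.9 ± 2.30 to 104.6 ± 3.48 CPM, a rise of 36.0% (log2 0.44, 95% interval 0.33 to 0.54, adjusted p = 1.59e-06). The library values given above show no overlap of E2 with vehicle for either siRNA. Per length, the Tgfbr3 share of the receptors went from 14.4% ± 0.731 to 21.6% ± 1.04 with scrambled siRNA, and the Tgfbr2 share went from 69.3% ± 1.19 to 64.1% ± 1.63.

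Tgfb3 fell with E2 by 23.9% with scrambled siRNA (log2 -0.39, adjusted p = 2.92e-08) and by 30.9% with siCYP1B1 (log2 -0.53, adjusted p = 4.81e-10). Each E2 library was below the vehicle libraries of the same siRNA. Mesothelial markers moved with E2 as well: 6 of 7 were lower with scrambled siRNA (median -0.66), and 6 of 7 with siCYP1B1 (median -0.56). Of all genes, 11.4% and 10.8% were lower in these comparisons. The fibroblast and pericyte sum was 3972 to 4438 CPM in scrambled E2 and 3208 to 3316 CPM in siCYP1B1 E2. The part of either list in the result was not tested.

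Ltbp1 was at 139.0, 129.9 and 121.4 CPM in scrambled E2, above the 104.4 to 119.0 CPM of scrambled vehicle (log2 0.21, adjusted p = 0.00230). With siCYP1B1 it was at 127.0, 130.0 and 134.1 CPM with E2, and the difference was 0.10 (adjusted p = 0.108, and 0.0429 with only these groups in the fit). Tgfb2 differed from vehicle by 0.06 with scrambled siRNA (adjusted p = 0.343) and by -0.13 with siCYP1B1 (adjusted p = 0.0454). The latter call lay close to the threshold and was lost without any 1 of the siCYP1B1 vehicle or E2 libraries (adjusted p 0.0708 to 0.128). Smad7 was higher with E2 in siCYP1B1 libraries, from 18.5 ± 0.690 to 21.5 ± 0.683 CPM (log2 0.21, adjusted p = 0.0267), and 0.00 apart with scrambled siRNA (adjusted p = 0.986). Its call was lost with quantile-normalized values (0.15, adjusted p = 0.124), with median-of-ratios factors (0.17, adjusted p = 0.0743), and without siCYP1B1 vehicle library 3 (adjusted p = 0.103), siCYP1B1 E2 library 1 (0.0895) or siCYP1B1 E2 library 3 (0.0676). Tgfb1, Tgfbr1, Tgfbr2, Smad3 and Skil had no call for E2 with either siRNA.

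16aOHE against vehicle gave fewer calls over all genes. Among the 10 genes it raised Tgfbr3 and Tgfb2 with either siRNA and Ltbp1 with scrambled siRNA. With scrambled siRNA 3 genes were higher (background 1.76%) and 0 were lower (2.08%). With siCYP1B1 2 were higher (2.53%) and 1 was lower (2.86%). The gene nearest to a lower call with scrambled siRNA was Tgfb3 (-0.09, unadjusted p = 0.0117 and adjusted p = 0.154 by limma).

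Tgfbr3 went from 60.6 ± 2.07 to 90.9 ± 3.28 CPM with scrambled siRNA, a rise of 50.1% (log2 0.58, adjusted p = 2.28e-07). With siCYP1B1 it went from 76.9 ± 2.30 to 96.9 ± 2.14 CPM, a rise of 26.0% (log2 0.33, adjusted p = 0.000354). Tgfb2 rose by 25.5% with scrambled siRNA (log2 0.32, adjusted p = 0.000222) and by 19.1% with siCYP1B1 (log2 0.25, adjusted p = 0.00326), and the 16aOHE libraries lay above all vehicle libraries of the same siRNA. Ltbp1 was at 133.3, 134.7 and 131.0 CPM with scrambled siRNA and 16aOHE (log2 0.24, adjusted p = 0.00417). With siCYP1B1 it was at 135.6, 130.4 and 135.7 CPM (log2 0.14, adjusted p = 0.0835). Tgfb3 fell by 8.98% with siCYP1B1 (log2 -0.13, adjusted p = 0.0201). Of the mesothelial markers 4 of 7 were lower in this comparison (median -0.14) and of the fibroblast and pericyte markers 2 of 5 (median -0.05), against 2.86% of all genes. The part of these markers in the result was not tested. The Tgfb3 call was lost without siCYP1B1 vehicle library 2 (adjusted p = 0.114) or siCYP1B1 16aOHE library 1 (0.0595), and with only these groups in the fit (0.101). Skil and Smad3 were not called with siCYP1B1 (0.17, adjusted p = 0.0945, and 0.09, adjusted p = 0.261). Skil was called without siCYP1B1 vehicle library 1 (0.22, adjusted p = 0.0469), and Smad3 without siCYP1B1 16aOHE library 3 (0.14, adjusted p = 0.0380). Tgfb1, Tgfbr1, Tgfbr2 and Smad7 had no call for 16aOHE with either siRNA.

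**Figure D4:**
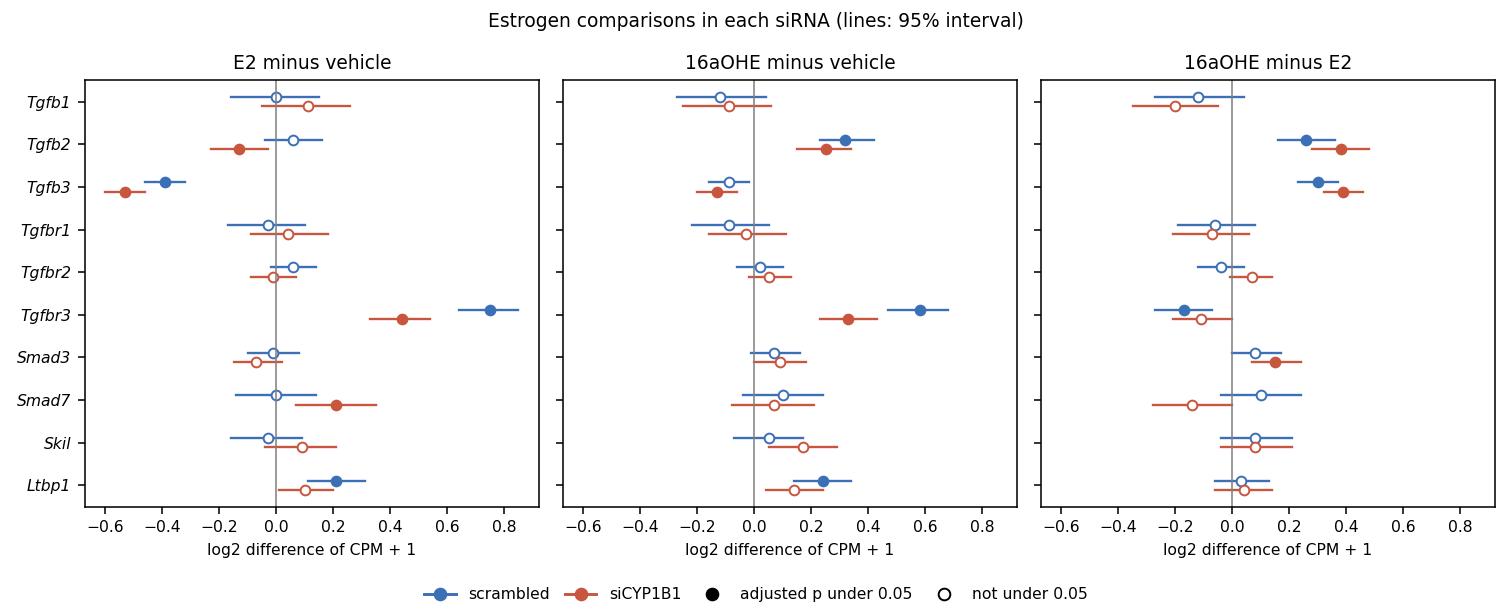
Log2 difference of CPM + 1 (x axis) for the 10 genes (y axis) in E2 minus vehicle, 16aOHE minus vehicle and 16aOHE minus E2, with scrambled siRNA or siCYP1B1 (colour). Lines are 95% intervals and filled points have an adjusted p under 0.05. Tgfbr3 rises with both estrogens, and Tgfb2 and Tgfb3 lie above 0 in 16aOHE minus E2 with either siRNA.

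The estrogens were compared with each other at the same dose and time, 1 uM for 24 hours. 16aOHE, read as the hydroxyestrone of that name, differs from estradiol by a ketone where the latter has its ring D hydroxyl and by 1 more hydroxyl on the neighbouring carbon. This 1 pair was compared in 2 siRNA settings, with p-values adjusted over all tested genes. Tgfb3 and Tgfb2 were higher with 16aOHE than with E2 in both settings. With scrambled siRNA 2 of the 10 genes were higher with 16aOHE (background 6.78%) and 1 was lower (11.6%). With siCYP1B1 3 were higher (6.59%) and 0 were lower (11.8%). The genes lowest there were Tgfb1 (-0.20, unadjusted p = 0.0139 and adjusted p = 0.0657 by limma), Smad7 (-0.14, unadjusted p = 0.0499) and Tgfbr3 (-0.11, unadjusted p = 0.0418), none of them called. Of all calls, 36.8% were higher with scrambled siRNA as deposited, 49.4% on quantile-normalized values and 55.1% with median-of-ratios factors. With siCYP1B1 these shares were 35.9%, 52.0% and 59.2%. Tgfb1 was called without siCYP1B1 16aOHE library 1 (-0.28, adjusted p = 0.0125).

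Tgfb3 was at 173.6 to 183.9 CPM with 16aOHE and at 143.3 to 147.5 CPM with E2 in scrambled libraries, 0.30 apart (95% interval 0.23 to 0.37, adjusted p = 3.68e-06). With siCYP1B1 the difference was 0.39 (95% interval 0.32 to 0.46, adjusted p = 8.08e-08). The mesothelial markers had the same direction, with 6 of 7 higher with 16aOHE than with E2 for either siRNA (medians 0.38 and 0.46, all genes 6.78% and 6.59% higher). Of the fibroblast and pericyte markers, 3 of 5 were higher for either siRNA (medians 0.18 and 0.24). Of the endothelial markers 2 of 5 were higher (medians 0.09 and 0.21), and of the smooth muscle markers 1 of 4. The part of these lists in the result was not tested. Tgfb2 differed by 0.26 with scrambled siRNA (95% interval 0.16 to 0.36, adjusted p = 0.000605) and by 0.38 with siCYP1B1 (95% interval 0.28 to 0.48, adjusted p = 1.04e-05). Smad3 was higher with 16aOHE in siCYP1B1 libraries (0.15, adjusted p = 0.0150), at 182.2, 169.4 and 156.1 CPM against 153.0, 153.8 and 148.5 CPM. That call was lost without siCYP1B1 E2 library 3 (adjusted p = 0.0632) or siCYP1B1 16aOHE library 1 (0.0865), and with only these groups in the fit (0.0766).

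Tgfbr3 was lower with 16aOHE than with E2 in scrambled libraries (-0.17, 95% interval -0.27 to -0.07, adjusted p = 0.0220). Without scrambled E2 library 2, the highest of the 18, the difference was -0.10 (adjusted p = 0.154). The call was also lost without scrambled 16aOHE library 3 (-0.14, adjusted p = 0.104), with median-of-ratios factors (-0.14, adjusted p = 0.0584) and with only these groups in the fit (adjusted p = 0.0634). With siCYP1B1 the Tgfbr3 difference was -0.11 (95% interval -0.21 to 0.00, adjusted p = 0.139). For Ltbp1 no difference between the estrogens was called, and the intervals were -0.06 to 0.13 with scrambled siRNA and -0.06 to 0.14 with siCYP1B1. For Skil both intervals were -0.04 to 0.21. For Tgfbr2 they were -0.12 to 0.04 and -0.01 to 0.14, and for Tgfbr1 -0.19 to 0.08 and -0.21 to 0.06. Smad7 had the intervals -0.04 to 0.24 and -0.28 to 0.00, and Tgfb1 -0.27 to 0.04 and -0.35 to -0.05. Smad3 in scrambled libraries had the interval 0.00 to 0.17. These intervals do not show that the compounds act alike on those genes.

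Whether the estrogen differences depended on the siRNA was tested by the interaction terms. No gene of the 10 and no gene of all 11835 was called for E2 or for 16aOHE by limma (background 0.00% for each). At an unadjusted p under 0.05 the E2 term had 4 of the 10 genes, against 470 of all genes (3.97%), and the 16aOHE term had 1 of 10, against 596 (5.04%). The E2 term of Tgfbr3 was -0.31 (unadjusted p = 0.000288, adjusted p = 0.568) and its 16aOHE term -0.25 (unadjusted p = 0.00219, adjusted p = 0.679). Tgfbr3 started from 60.6 ± 2.07 CPM in scrambled vehicle and from 76.9 ± 2.30 CPM in siCYP1B1 vehicle, and its E2 levels were 102.6 ± 8.96 and 104.6 ± 3.48 CPM. For E2, Tgfb2 had a term of -0.19 (unadjusted p = 0.00889), Tgfb3 of -0.13 (unadjusted p = 0.00972) and Smad7 of 0.21 (unadjusted p = 0.0404), each with an adjusted p of 0.998.

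The other genes of the pathway were described from 5 lists of 59 genes in all, of which 53 were tested. In the siRNA average 13 of the 53 were higher and 26 lower, against 26.5% higher and 18.2% lower of all genes tested. The list of latency and activation had 1 higher and 9 lower of 11 tested (all genes 26.5% and 18.2%), with a median of -0.23 against 0.03 over all genes. Its largest falls were in Itgb8, an integrin subunit that activates latent TGF-beta (-0.79, SE 0.0685, adjusted p = 7.70e-09), in the matrix protein Ltbp2 (-0.67, adjusted p = 2.93e-06) and in the latency protein Ltbp4 (-0.34, adjusted p = 6.94e-07). Itgb8 went from 24.9, 23.9 and 22.1 CPM in scrambled vehicle to 13.6, 14.9 and 13.5 CPM in siCYP1B1 vehicle. Of the other receptors and ligand traps, 0 were higher and 3 lower of 6 tested (all genes 26.5% and 18.2%): the ligand-binding proteoglycans Dcn (-0.62) and Bgn (-0.50) and the co-receptor Cd109 (-0.12). None of the other 3 had an unadjusted p under 0.05, a threshold at which all genes were not counted in this comparison.

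The SMAD transducers and their modifiers had 5 higher and 1 lower of 11 (all genes 26.5% and 18.2%), and the largest rises were in the ubiquitin ligase genes Nedd4l (0.22) and Smurf1 (0.12) and the SMAD anchor Zfyve9 (0.12). Smad2 and Smad4 differed by 0.02 (adjusted p = 0.549) and -0.01 (adjusted p = 0.855). The other repressors had 3 higher and 3 lower of 7, against the same 26.5% and 18.2%. Pmepa1, a feedback inhibitor and target of the pathway, fell by 0.40 (adjusted p = 9.37e-05), its relative Ldlrad4 fell by 0.18, and the corepressor Tgif1 was 0.17 higher. Among TGF-beta target genes 4 were higher and 10 lower of 18, again against 26.5% and 18.2%. Ctgf, a matricellular growth factor gene, fell by 0.67 (adjusted p = 4.62e-09) and the fibronectin gene Fn1 by 0.54 (adjusted p = 6.06e-09), whereas Tgfbi, an extracellular adhesion protein gene, was 0.66 higher (adjusted p = 6.82e-06) at 5.23, 4.43 and 5.63 CPM in siCYP1B1 vehicle against 2.92, 2.38 and 2.47 CPM. The lists share 4 genes with the marker lists (Acta2, Col1a1, Dcn and Tagln), and the fibroblast and mesothelial sums given above moved in the same direction as the genes that fell.

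E2 with scrambled siRNA had 9 of the 53 pathway genes higher and 14 lower, against 18.6% higher and 11.4% lower of all genes. With siCYP1B1 10 were higher and 12 lower (all genes 16.7% and 10.8%). The lists that follow are those with scrambled siRNA, to be read against 18.6% and 11.4%. In latency and activation 2 were higher and 3 lower of 11: Ltbp2 (-0.96), Itgb8 (-0.53) and Ltbp4 (-0.34). Of the receptors and traps, 2 were higher and 3 lower of 6, among them the type I activin receptor gene Acvr1b (0.45), Dcn (-0.42) and the co-receptor endoglin, Eng (-0.35). Of the SMAD genes 3 were higher and 1 lower of 11, with Zfyve9 (0.22), Smurf2 (0.21) and the type I receptor binding protein gene Fkbp1a (-0.18) named by size. The inhibitory Smad6 (-0.27) was the 1 call among 7 repressors. Of 18 target genes 2 were higher and 6 lower, and the largest falls were in smooth muscle actin, Acta2 (-1.03, adjusted p = 4.99e-08), the collagen gene Col1a2 (-0.68) and Ctgf (-0.57). Acta2 went from 30.6, 31.8 and 35.8 CPM to 15.9, 14.2 and 16.5 CPM.

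16aOHE with scrambled siRNA had 2 of 53 higher and 3 lower (all genes 1.76% and 2.08%), and with siCYP1B1 5 higher and 3 lower (2.53% and 2.86%). With scrambled siRNA the latency protein gene Ltbp3 was among those higher (0.20, adjusted p = 0.0364), and Dcn (-0.24), Acta2 (-0.43) and Col1a2 (-0.20) were lower. In 16aOHE against E2 the 53 genes had 14 higher and 5 lower with scrambled siRNA (all genes 6.78% and 11.6%), and 11 higher and 5 lower with siCYP1B1 (6.59% and 11.8%). Ctgf was 0.72 higher with 16aOHE than with E2 in scrambled libraries (adjusted p = 2.98e-05).

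**Figure D5:**
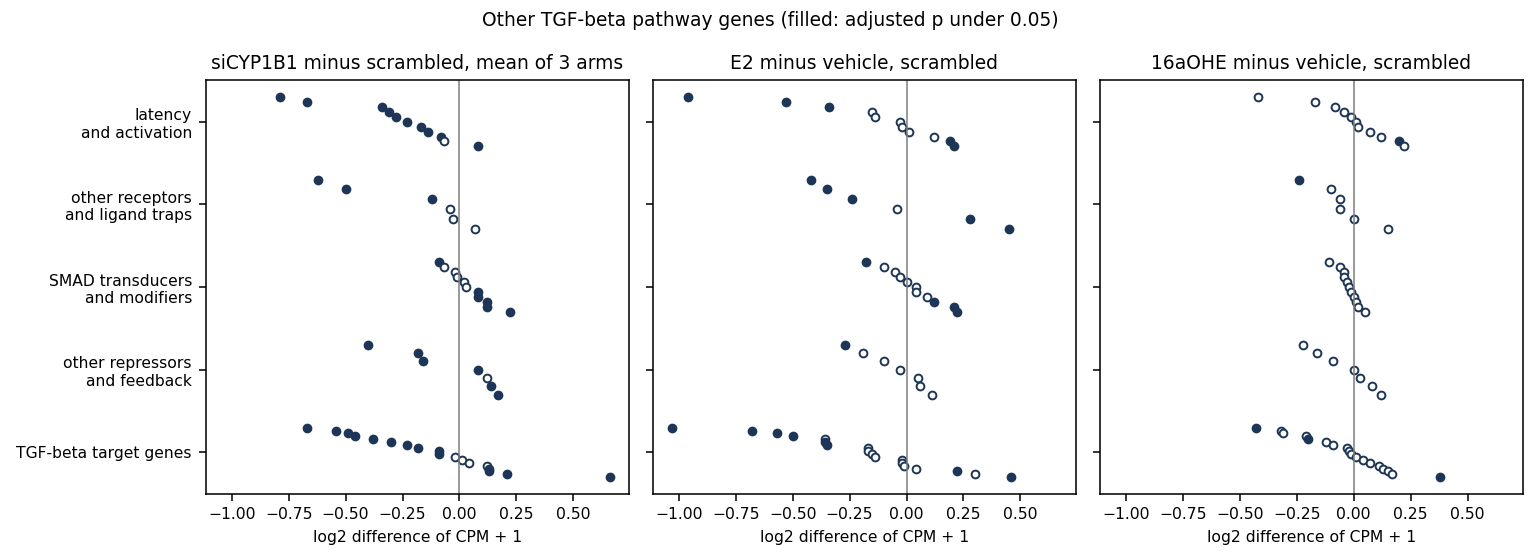
Log2 difference of CPM + 1 (x axis) of the 53 tested pathway genes outside the 10, by list (y axis), in siCYP1B1 minus scrambled averaged over the arms, E2 minus vehicle and 16aOHE minus vehicle, the latter 2 with scrambled siRNA. Each point is a gene, and filled points have an adjusted p under 0.05. Of 11 latency and activation genes, 9 are lower and 1 higher in the left panel.

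Likeness of pattern was measured as Pearson's r of log2(CPM + 1) over the 18 libraries, which share the 6 groups, so that r describes these libraries and carries no test. The most alike of the 11359 other genes compared were Ezr for Tgfb3 (0.987), Jak1 for Tgfbr3 (0.975), Ppfibp1 for Skil (0.963), Fam234a for Tgfb2 (0.920) and Bnc2 for Smad3 (0.906). For Tgfb1 it was Lime1 (0.879), for Smad7 Asic3 (0.873), for Ltbp1 G6pdx (0.857), for Tgfbr2 Lats2 (0.848) and for Tgfbr1 Zfp120 (0.804). The next gene for Tgfb3 was Upk3b (0.986), which is on the mesothelial marker list. Between the 10 genes themselves r was highest for Tgfb2 with Smad3 (0.85) and Tgfbr3 with Ltbp1 (0.79), and lowest for Tgfb3 with Tgfbr3 (-0.67).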

How the data were processed

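The 18 mouse RNA sequencing libraries fall into 6 groups of 3 by their sample labels. The authors deposited 1 table of CPM values for 15288 genes, with an offset of 1e-04 on every value. TopHat2, Partek and the build mm10 are listed, per the submitters' processing notes, with no role. The sources used here give no versions, annotation or strand handling. Over all genes of a library, 89.9% to 93.7% of values fell within 0.1 of whole reads, so the table was not treated as counts.

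CPM + 1 was log2 transformed, which understates changes of low genes. Genes averaging at least 1 CPM (11835, all 10 TGF-beta genes among them; 3453 below) were fitted with limma 3.58.1 in R 4.3.3, with 1 coefficient per group and a trended variance, in 12 comparisons. Benjamini-Hochberg adjustment ran over all tested genes within each comparison. Levels per kilobase used GENCODE M21 exon lengths. The model was also run on simulated data with independent noise for each value, which cannot check for effects shared between libraries. Alternatives covered the pseudocount, filter, scaling, variance trend, libraries fitted and each library left out.

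The 10 genes, the pathway lists and the markers were chosen with earlier results of these data known. Named pathway genes are up to 3 called genes with the largest difference per list in 3 comparisons (the siRNA average and each estrogen against vehicle with scrambled siRNA). Of the genes that this rule names, 1 is not reported here. The most alike gene leaves out predicted genes and small RNAs. Ctgf in 16aOHE against E2, Smad2, Smad4, Ttll5 and Upk3b were named after their values were seen. On the log scale, libraries correlated at 0.9945 to 0.9978 within a group and at 0.9864 to 0.9967 across groups.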

Additional observations from a re-analysis of the deposited data

How the results depend on the processing

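Of the 39 calls of the 10 genes over the 12 comparisons, 29 were kept under every alternative, and 10 were lost under at least 1. Over 1920 recomputed differences 1876 kept their side of the threshold, 35 lost their call, 9 gained one and 0 called differences changed sign. Differences that were not called changed sign in 47 cases and are counted as kept. For the number of the 10 genes called, E2 against vehicle with siCYP1B1 gave 4, and 2 to 3 when 1 library was left out. Leaving out siCYP1B1 vehicle library 3 or siCYP1B1 E2 library 1 or 3 gave 2, because Tgfb2 and Smad7 were then no longer called. The other comparisons stayed within 1.5 times their count. The 2 scalings moved the median of all genes by less than 0.1 on the log2 scale. No paired analysis was possible because the labels carry no replicate numbers and the numbers used here, in accession order, pair no libraries. The planned test of genes below 1 CPM had no case, as all 10 genes passed that filter. The shallowest library, siCYP1B1 16aOHE 1, had 14.1 reads per CPM, and the fewest estimated reads of any of the 10 genes were the 266 of Smad7.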
